A study of Homo sapiens with 60 samples.

Results

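The glucocorticoid receptor gene NR3C1 and 5 of the genes that the receptor is known to induce (FKBP5, TSC22D3, KLF9, SGK1 and CRISPLD2) were followed in SW1783 cells, a human astrocytoma line, exposed to herbal water extracts. The 6 genes were taken by symbol from the 60675 genes of the count table, and all 6 were found and passed the filter on low counts, as 6 of 17190 genes tested. Cells grown in serum-containing medium were exposed for 24 h to water extracts of Citri Unshius Pericarpium (below Citri), Cimicifugae Rhizoma (Cimicifugae), Bupleuri Radix (Bupleuri), Aconiti Lateralis Radix Preparata (Aconiti), or the multi-herb formulas Yijung-tang and Banhasasim-tang. Each was given at 500 µg/mL (high), 100 µg/mL (medium) and 20 µg/mL (low), with 3 libraries per dose, beside 3 libraries of a DMSO vehicle. A seventh extract, Bojungikgi-tang, has 1 library per dose, so its values are given without a test. The vehicle label reads 0.1% DMSO, while the series' design text gives another concentration. That text also says that extracts with an IC20 under 500 µg/mL were given at that IC20 and at dilutions of it, so the true doses of an extract may be lower than the labelled ones used here. All groups come from the same cell line, and no group was given a glucocorticoid, so there is no positive control for the receptor among these libraries. Sample codes place the vehicle alone, Citri and Cimicifugae in set 5, Bupleuri and Aconiti in set 6, and the formulas in set 7. What a code set stands for is not stated, so a difference from vehicle cannot be told apart from a difference between sets, while doses of 1 extract and the paired extracts share a set. The labels do not say that the libraries of a group came from separate cultures, so p-values measure only the spread between these libraries, which may be technical.

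The glucocorticoid receptor is a nuclear receptor that waits in the cytosol, folded by HSP90 and its partner chaperones. Bound hormone releases it to the nucleus, where it sits on DNA as a dimer, switches on target genes, and holds back inflammatory genes driven by NF-kB and AP-1. Astrocytes carry the receptor, and FKBP5, TSC22D3, KLF9 and SGK1 are among its standard readouts in brain cells. Several of these genes answer other signals too: SGK1 to serum and osmotic stress, and KLF9 to thyroid hormone and oxidative stress.

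On build GRCh38 with GENCODE 29 annotation, all 6 are protein-coding genes. NR3C1 (ENSG00000113580) lies at chr5:143277931-143435512 and KLF9 (ENSG00000119138) at chr9:70384597-70414624. FKBP5 (ENSG00000096060) lies at chr6:35573585-35728583 and SGK1 (ENSG00000118515) at chr6:134169246-134318112. TSC22D3 (ENSG00000157514) lies at chrX:107713221-107777342, and these 5 are on the minus strand. CRISPLD2 (ENSG00000103196) lies on the plus strand at chr16:84819984-84920768.

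The start-site windows of the 2 genes that moved most (KLF9 and CRISPLD2), and the 2 windows that hold a receptor single-arm site (FKBP5 and SGK1), are printed here. FKBP5 has 2 windows and SGK1 has 3, and only the window with that site is printed for each. Counts were per gene, so they do not tell which start these cells use. They are RefSeq windows of build GRCh38.p14, from 250 bases before to 50 after a start, and 18 such windows matched the 6 genes. Capitals mark 3 motifs on either strand: the single-arm receptor site AGAACA, the CCAAT box (CCAAT, or ATTGG on the other strand) and the GC box (GGGCGG, or CCGCCC).
KLF9 (chr9:70414608-70414907, minus strand): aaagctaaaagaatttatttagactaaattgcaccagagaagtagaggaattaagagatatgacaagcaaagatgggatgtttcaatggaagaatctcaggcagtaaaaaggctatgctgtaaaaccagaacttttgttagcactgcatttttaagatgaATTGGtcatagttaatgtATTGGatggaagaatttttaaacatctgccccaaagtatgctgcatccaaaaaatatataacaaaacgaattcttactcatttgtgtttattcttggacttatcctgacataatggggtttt
CRISPLD2 (chr16:84819735-84820034, plus strand): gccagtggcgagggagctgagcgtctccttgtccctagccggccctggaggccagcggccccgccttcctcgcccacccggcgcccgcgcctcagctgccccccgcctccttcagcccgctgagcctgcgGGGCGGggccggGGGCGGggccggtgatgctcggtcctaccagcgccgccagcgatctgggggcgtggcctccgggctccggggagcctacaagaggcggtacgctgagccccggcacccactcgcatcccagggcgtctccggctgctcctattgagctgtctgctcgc
SGK1 (chr6:134177812-134178111, minus strand): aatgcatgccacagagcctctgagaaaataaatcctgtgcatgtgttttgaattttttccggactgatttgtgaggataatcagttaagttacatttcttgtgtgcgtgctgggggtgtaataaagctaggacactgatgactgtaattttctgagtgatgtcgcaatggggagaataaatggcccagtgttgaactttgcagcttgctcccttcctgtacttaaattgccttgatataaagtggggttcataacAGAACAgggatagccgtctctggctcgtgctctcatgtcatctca
FKBP5 (chr6:35728534-35728833, minus strand): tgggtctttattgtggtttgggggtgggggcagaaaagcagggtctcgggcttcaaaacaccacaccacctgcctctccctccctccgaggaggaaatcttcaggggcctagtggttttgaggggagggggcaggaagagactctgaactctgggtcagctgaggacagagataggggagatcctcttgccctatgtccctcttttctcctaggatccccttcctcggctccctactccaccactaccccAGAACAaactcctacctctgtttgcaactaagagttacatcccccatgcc
The full palindromic receptor element, AGAACA then any 3 bases then TGTTCT, was found in 0 of the 18 windows and in 0.00285% of the 35116 RefSeq windows searched. Its looser form, GNACA then any 3 bases then TGTNC, was also in 0 of 18, beside 0.39% of all windows. The single-arm site, which is also the first arm of the full element, was in 2 of 18 windows, beside 14.8% of all windows. A CCAAT box was in 6 of 18 (34.6% of all windows) and a GC box in 11 of 18 (45% of all windows). A match is a description of the letters in these windows only.

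In the vehicle libraries all 6 transcripts were present, at very different levels per length. On the scale of CPM (counts scaled to a common library size) per kilobase of annotated exon, NR3C1 stood at 27.0 ± 0.246 (SD, n = 3), KLF9 at 12.8 ± 0.0503, CRISPLD2 at 11.2 ± 0.532, SGK1 at 5.9 ± 0.256, TSC22D3 at 2.93 ± 0.0581 and FKBP5 at 1.21 ± 0.0104. So on this scale the receptor stood highest of the 6 and FKBP5 lowest. The length joins all annotated exons of a gene, not those of the transcripts expressed here, so the order depends on the annotation. The related mineralocorticoid receptor gene NR3C2 did not pass the filter: its 57 libraries held 1 to 11 counts each. HSD11B1, whose enzyme regenerates active cortisol, held 0 to 7 counts per library, and HSD11B2, whose enzyme inactivates it, 0 to 6. Read on the tissue label, the astrocyte defining markers were mostly missing: GFAP reached at most 0.258 CPM, S100B 0.414, AQP4 0.092 and ALDH1L1 0.0928, whereas VIM (4150 to 4540 CPM in vehicle), CD44 (2750 to 2830) and SLC1A3 (33.0 to 35.1) were expressed.

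Library totals lay between 18.9 M and 36.4 M counts, and mitochondrially encoded genes took 5.03 to 10.84% of them. The high share belonged to Aconiti: 8.995 to 9.29% at the high dose and 10.561 to 10.839% at the medium dose, beside 5.025 to 5.286% in vehicle. Of the markers of other cell types, 7 were listed for epithelium, and KRT5, EPCAM and CDH1 were at or near 0. Their summed level, nearly all KRT18, was 91.5 to 96.2 CPM in Aconiti at the high dose and 243 to 253 CPM in vehicle, and it was below vehicle at the high dose of every extract, up to 198 CPM. The 5 neuronal markers summed to 26.3 to 28.3 CPM in Aconiti at the high dose and 50.3 to 51.1 CPM in vehicle, with RBFOX3 near 0, and 1 of them was called higher and 2 lower. Other marker sums were higher with Aconiti: the 4 oligodendrocyte markers, with MOG at or near 0, summed to 14.0 to 14.5 CPM beside 6.8 to 8.56 CPM in vehicle, and the 4 immune markers, mostly CD68 with CD14 and AIF1 near 0, to 195 to 208 CPM beside 151 to 160 CPM. Immune markers reached 178 to 235 CPM in Cimicifugae at the high dose. The part of these shifts in the results was not tested. In bulk RNA, fewer cells of a kind and less RNA per cell cannot be told apart. Among the 57 libraries, 2 lay farther from their own groups than the rest: Cimicifugae high replicate 3 (root mean square log2 deviation 0.146) and Citri low replicate 3 (0.136), where the next library was at 0.098. They also held more mitochondrial counts than the other libraries of their groups, 7.695% beside 5.321 and 5.435% and 7.367% beside 5.748 and 5.876%. Yijung-tang high replicate 1 was at 8.209%. Without the 2 libraries, Cimicifugae at the high dose against vehicle gave 0.60 for KLF9 and -0.44 for CRISPLD2 on the log2 scale, and 0.56 and -0.36 against its low dose. Citri from low to high dose then gave 0.50 for KLF9, -0.38 for CRISPLD2, 0.14 for NR3C1 and 0.15 for SGK1, all still called.

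Comparisons used edgeR's quasi-likelihood test over all genes, with a gene called at an adjusted p under 0.05. At the high dose against vehicle, 5 of the 6 genes were called with Aconiti, where 60.4% of all genes tested were called. With Citri 4 were called (21.6% of all genes), with Yijung-tang 3 (32%), with Banhasasim-tang 3 (16.8%), with Cimicifugae 2 (32.5%) and with Bupleuri 1 (7.02%). The called genes went both ways with Citri, Cimicifugae, Aconiti and Yijung-tang and one way with Banhasasim-tang. With Aconiti KLF9 and TSC22D3 rose while NR3C1, SGK1 and CRISPLD2 fell. With Banhasasim-tang KLF9, SGK1 and CRISPLD2 were all lower than in vehicle. FKBP5 was called in none. The 6 comparisons share the same 3 vehicle libraries, so their values are set side by side only.

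**Figure D1:**
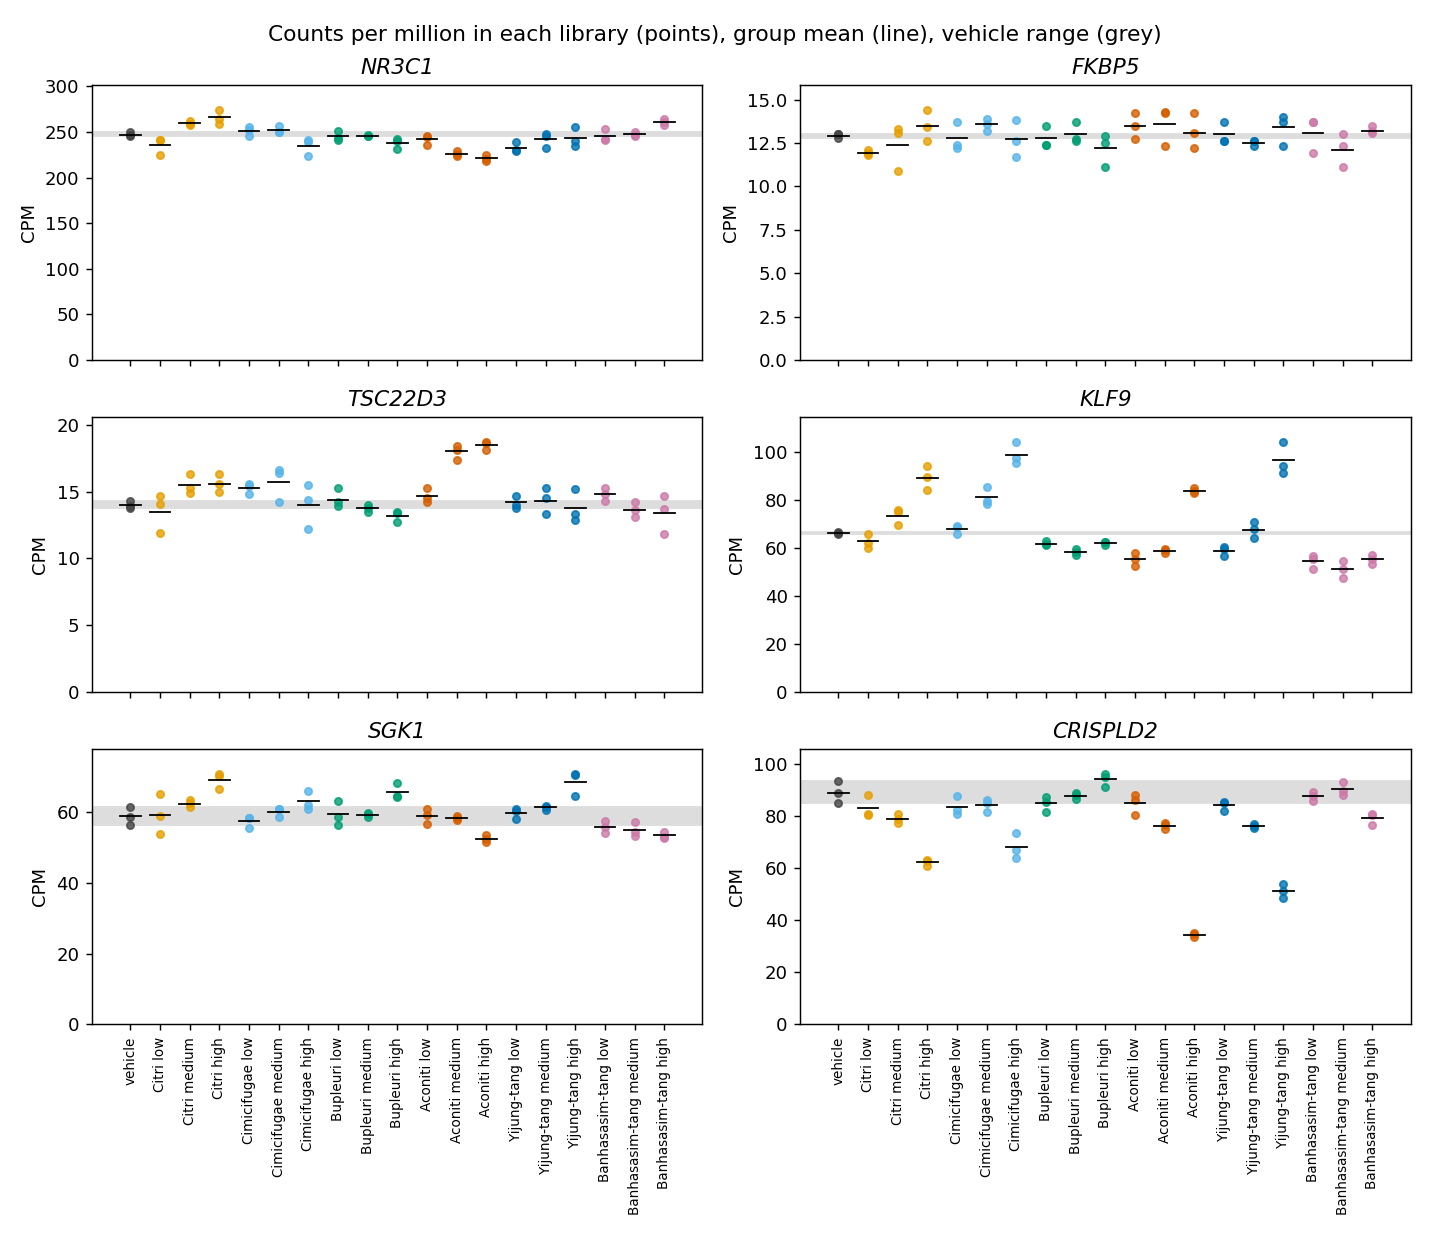
Level of each of the 6 genes (CPM, linear axis from 0) in the 57 libraries of the vehicle and of 6 extracts at 3 doses. Points are single libraries, black lines are group means and the grey band is the range of the 3 vehicle libraries. KLF9 and CRISPLD2 leave the band most widely, with group means from 51.1 to 98.8 CPM and from 34.4 to 93.9 CPM, while FKBP5 means stay between 11.9 and 13.6 CPM.

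NR3C1, the receptor itself, kept a narrow range, with group means from 221 to 266 CPM. The vehicle libraries read 245, 250 and 247 CPM. Citri at the high dose read 264, 274 and 259 CPM, all above vehicle, and Aconiti at the high dose 218, 220 and 225 CPM, all below. The log2 change against vehicle was 0.10 with a standard error (SE) of 0.0312 for Citri (adjusted p = 0.0114) and -0.16 (SE 0.0315, adjusted p = 1.8e-05) for Aconiti, so both shifts were small. Citri's call was lost when its high replicate 2 was left out (log2 change 0.09, adjusted p = 0.07) and with no filter on low counts (0.11, adjusted p = 0.0735). Aconiti was already lower at the medium dose, at 229, 224 and 226 CPM (-0.13, adjusted p = 0.00106, where 31.1% of all genes were called). Cimicifugae at the high dose, at 241, 239 and 224 CPM, all below vehicle, lay at the threshold (-0.08, adjusted p = 0.0522). It was called with DESeq2 (0.0439) and with a replicate block (0.0416), and not without the 2 libraries that lay apart (-0.04, adjusted p = 0.334). Banhasasim-tang at the high dose read 264, 261 and 257 CPM, all above vehicle, and was not called (0.08, adjusted p = 0.0848, or 0.0382 without the 2 libraries that lay apart). At 20 µg/mL no extract moved NR3C1 past the threshold. Yijung-tang at that dose, at 230, 229 and 239 CPM, all below vehicle, gave -0.09 (adjusted p = 0.0736, or 0.0393 without the 2 libraries). At 20 µg/mL 1.88% of all genes were called with Citri, 1.27% with Cimicifugae, 0.0756% with Bupleuri, 2.19% with Aconiti, 6.38% with Yijung-tang and 5.75% with Banhasasim-tang.

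Within extracts the receptor transcript ran in opposite directions with dose. From low to high dose it rose by 0.17 on the log2 scale with Citri (SE 0.0311, adjusted p = 4.3e-05, 18.2% of all genes called) and fell by 0.13 with Aconiti (SE 0.0315, adjusted p = 0.000521, 57.8% called). Cimicifugae gave -0.10 (SE 0.0312, adjusted p = 0.0155, 25.1% called), a call that ended at -0.07 without its high replicate 3 (adjusted p = 0.166) and at -0.09 without its low replicate 1 (adjusted p = 0.0787). The change from low to high dose differed between Citri and Cimicifugae, which share set 5, by 0.27 (SE 0.044, adjusted p = 2.91e-05, 11.1% of all genes called). Leaving out the 2 libraries that lay apart gave 0.21 (adjusted p = 0.00247). Citri at the high dose held more NR3C1 than Cimicifugae at the high dose (0.18, adjusted p = 3.2e-05, 12.3% called), and by 0.15 without those libraries (adjusted p = 0.000622).

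FKBP5 encodes an HSP90 cochaperone that lowers the receptor's affinity for hormone, and its induction forms a short feedback loop on the receptor. Vehicle libraries read 12.8, 13.0 and 13.0 CPM. Aconiti at the high dose read 14.2, 13.1 and 12.2 CPM, and Citri at the high dose 13.4, 14.4 and 12.6 CPM, so both groups overlapped vehicle. No comparison called FKBP5: 0 of 42 with edgeR, 1 of 42 at an unadjusted p under 0.05, and the lowest adjusted p was 0.113. Of the 18 comparisons with vehicle, the 95% intervals together ran from -0.27 to 0.23 on the log2 scale. DESeq2 called it in none of the 12 comparisons it was run on, high dose against vehicle and high against low. FKBP5 had the lowest vehicle level of the 6 genes in CPM.

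TSC22D3 encodes GILZ, a leucine zipper protein through which glucocorticoids restrain NF-kB and AP-1. It rose with Aconiti and with no other extract did it pass the threshold against vehicle. The 3 vehicle libraries read 14.3, 13.8 and 13.9 CPM. Aconiti read 18.1, 18.7 and 18.6 CPM at the high dose and 18.4, 17.4 and 18.1 CPM at the medium dose, with all 6 libraries above vehicle, and 14.2, 14.5 and 15.3 CPM at the low dose. The log2 change was 0.40 (SE 0.0745, adjusted p = 6.64e-06) at the high and 0.36 (SE 0.0749, adjusted p = 0.000142) at the medium dose. From low to high dose it was 0.33 (adjusted p = 0.000135). The gene's locus overlaps NCBP2L on the opposite strand, and no source used here says whether the counting used strand.

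Bupleuri, the other extract of set 6, gave no such rise: TSC22D3 read 13.4, 12.7 and 13.5 CPM at the high dose. The difference between Bupleuri and Aconiti in the change from low to high dose was -0.46 (SE 0.106, adjusted p = 0.000293, 44% of all genes called). With Citri the change from low to high dose was 0.21 (adjusted p = 0.0452), and it was 0.12 (adjusted p = 0.38) without low replicate 3. Leaving out Citri high replicate 1 (0.17, adjusted p = 0.171) or high replicate 3 (0.21, adjusted p = 0.086) ended that call as well. The Citri and Cimicifugae changes from low to high dose differed by 0.33 (SE 0.105, adjusted p = 0.0344), but by 0.15 (adjusted p = 0.557) without the 2 libraries that lay apart.

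KLF9, a Krüppel-like transcription factor and one of the most widely shared receptor targets, rose with 4 extracts at 500 µg/mL. Against vehicle libraries at 66.0, 66.2 and 66.5 CPM, Cimicifugae read 97.2, 104 and 95.5 CPM and Yijung-tang 93.9, 104 and 91.3 CPM. Citri read 84.2, 93.9 and 89.5 CPM and Aconiti 83.6, 82.9 and 84.8 CPM. All 12 of these libraries lay above vehicle. The log2 changes were 0.58 (SE 0.0483, adjusted p = 1.4e-13) for Cimicifugae, 0.55 (SE 0.0486, adjusted p = 1.32e-12) for Yijung-tang, 0.43 (SE 0.0487, adjusted p = 2.12e-09) for Citri and 0.34 (SE 0.0494, adjusted p = 5.41e-08) for Aconiti.

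Banhasasim-tang held less KLF9 than vehicle, which is not in its set 7, so extract and set cannot be told apart. Its libraries read 53.3, 55.5 and 57.2 CPM at the high dose, 47.4, 51.1 and 54.7 CPM at the medium and 51.4, 55.6 and 56.8 CPM at the low dose, all 9 below vehicle. The log2 changes against vehicle were -0.26 (adjusted p = 0.000102), -0.37 (adjusted p = 6.1e-07, 8.32% of all genes called) and -0.28 (adjusted p = 0.000363, 5.75% called), with no difference called between the high and low dose (0.02, 95% interval -0.08 to 0.12, 6.67% called). Bupleuri read 61.3, 62.3 and 62.5 CPM at the high dose, and its log2 change of -0.09 was not called (95% interval -0.2 to 0.01). Yijung-tang and Banhasasim-tang, both of set 7, differed in KLF9 by 0.81 (SE 0.0484, adjusted p = 9.79e-19, 23.8% of all genes called) at the high dose.

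At the lower doses, 2 of the 4 extracts that raised KLF9 at 500 µg/mL were called below vehicle. Aconiti at 20 µg/mL read 52.3, 55.6 and 58.1 CPM (log2 change -0.26, adjusted p = 0.00141, 2.19% of all genes called) and at 100 µg/mL 59.4, 59.2 and 57.8 CPM (-0.17, adjusted p = 0.00725), before the rise at 500 µg/mL. Yijung-tang at 20 µg/mL read 56.5, 59.7 and 60.4 CPM (-0.17, adjusted p = 0.0281, 6.38% called). That call was lost when any 1 of vehicle replicates 1, 2 and 3 or of Yijung-tang low replicates 1 and 2 was left out, with adjusted p from 0.0758 to 0.167. Citri at 20 µg/mL, with all its libraries below vehicle, was not called (-0.08, adjusted p = 0.442), nor was Cimicifugae (0.04, adjusted p = 0.848). Bupleuri libraries also lay below vehicle, at 61.5, 62.7 and 61.2 CPM at 20 µg/mL (-0.10, adjusted p = 0.783). At 100 µg/mL Bupleuri read 57.1, 58.5 and 59.5 CPM (-0.18, adjusted p = 0.0971, or 0.0238 with a replicate block). The vehicle shares no set with these extracts, so a dose effect against vehicle and a difference between sets cannot be told apart. Within each extract, which leaves the vehicle out, KLF9 rose from low to high dose by 0.72 with Yijung-tang (SE 0.048, adjusted p = 1.39e-16, 21.7% of all genes called), 0.60 with Aconiti (SE 0.0504, adjusted p = 1.02e-14), 0.54 with Cimicifugae (SE 0.0479, adjusted p = 1.66e-12) and 0.51 with Citri (SE 0.0486, adjusted p = 3.02e-11). Bupleuri gave 0.01 (95% interval -0.1 to 0.11, 4.37% called). These KLF9 calls, at the high dose against vehicle and from low to high dose, held in every refit that left out 1 library.

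At the medium dose KLF9 was called higher with Cimicifugae. Cimicifugae at 100 µg/mL read 78.4, 79.5 and 85.4 CPM for KLF9, all above vehicle (0.29, SE 0.0488, adjusted p = 5.48e-05, 6.63% of all genes called). Citri at 100 µg/mL read 69.5, 75.6 and 75.1 CPM, also all above vehicle, but its log2 change of 0.15 missed the threshold (adjusted p = 0.11, 2.07% called), and passed it with a replicate block (adjusted p = 0.0327). Yijung-tang read 64.3, 67.8 and 70.7 CPM, which overlapped vehicle (0.03, adjusted p = 0.818, 6.28% called). In the order of the 19 group means of KLF9, Cimicifugae, Yijung-tang, Citri and Aconiti at the high dose came first, and neighbours among these 4 overlapped.

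**Figure D2:**
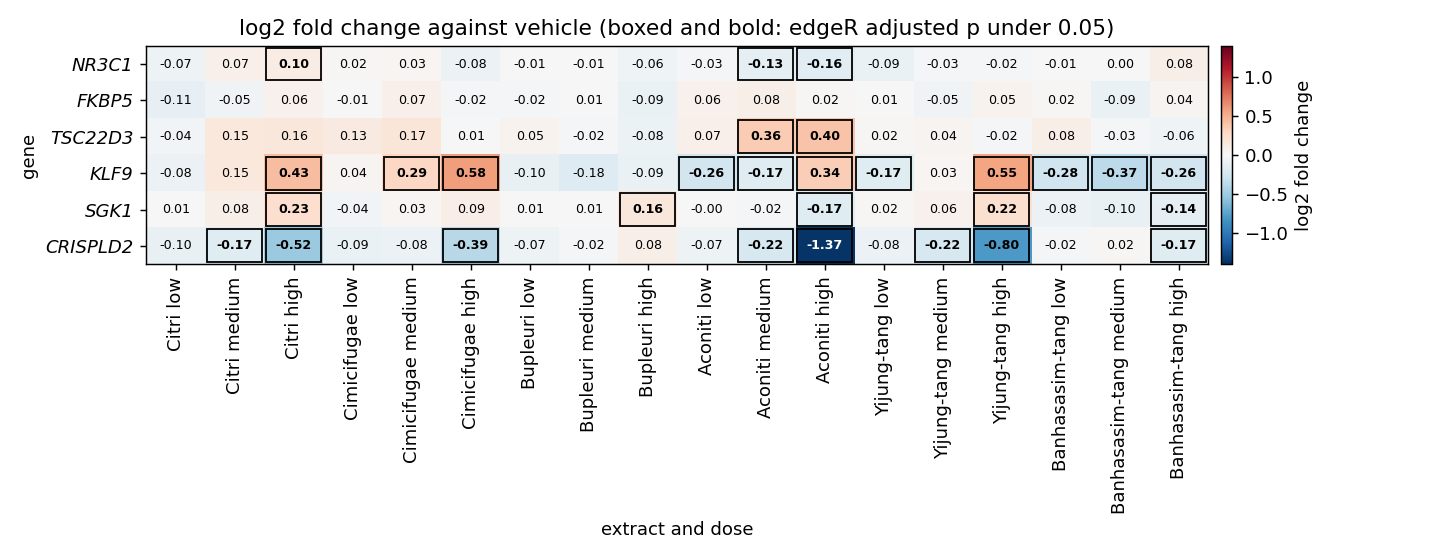
Log2 fold change of each gene (rows) against vehicle at each dose of the 6 extracts (columns), from red (higher) to blue (lower). Boxed bold values passed the edgeR threshold. The widest shifts are CRISPLD2 with Aconiti (-1.37) and Yijung-tang (-0.80) at the high dose and KLF9 with Cimicifugae (0.58), and the FKBP5 row has no box.

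SGK1, a serine/threonine kinase that raises sodium channel activity and is induced rapidly by receptor activation, shifted by small amounts. The vehicle libraries read 58.8, 61.6 and 56.5 CPM. Citri at the high dose read 70.4, 70.8 and 66.6 CPM and Yijung-tang 70.5, 70.8 and 64.7 CPM, all above vehicle. Aconiti at the high dose read 51.5, 52.6 and 53.6 CPM, all below vehicle. These groups gave log2 changes of 0.23 (SE 0.0453, adjusted p = 0.000135), 0.22 (SE 0.0455, adjusted p = 0.000164) and -0.17 (SE 0.0469, adjusted p = 0.00199).

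The remaining SGK1 calls were less steady. With Bupleuri at the high dose SGK1 read 68.2, 64.5 and 64.6 CPM (0.16, adjusted p = 0.0241). That call ended without vehicle replicate 1 (adjusted p = 0.075), vehicle replicate 3 (0.153) or Bupleuri high replicate 1 (0.138). With Banhasasim-tang it read 54.5, 52.8 and 53.1 CPM (-0.14, adjusted p = 0.0234), and the call ended without vehicle replicate 1 (adjusted p = 0.0657), vehicle replicate 2 (0.186), or Banhasasim-tang high replicate 2 (0.091) or 3 (0.0764). The Banhasasim-tang call also ended with no filter on low counts (-0.13, adjusted p = 0.119). Cimicifugae at the high dose gave 0.09 (adjusted p = 0.105), or 0.12 (adjusted p = 0.0431) without the 2 libraries that lay apart. Neither the medium nor the low dose of any extract moved SGK1 past the threshold against vehicle. With Bupleuri 0.413% of all genes were called at the medium dose, and none of the 6.

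From low to high dose SGK1 rose by 0.22 with Citri (adjusted p = 0.000306) and 0.20 with Yijung-tang (adjusted p = 0.000601), and fell by 0.17 with Aconiti (adjusted p = 0.00218). Cimicifugae gave 0.13 (adjusted p = 0.0246), which was lost without high replicate 2 (0.10, adjusted p = 0.139) or low replicate 1 (0.11, adjusted p = 0.135). Fitting the 2 groups alone ended the Citri call (0.22, adjusted p = 0.0807) and the Cimicifugae call (0.14, adjusted p = 0.13). Without the 2 libraries that lay apart Citri gave 0.15 (adjusted p = 0.0157). The change from low to high dose differed between Bupleuri and Aconiti by 0.31 (SE 0.0652, adjusted p = 8.69e-05) and between Yijung-tang and Banhasasim-tang by 0.26 (SE 0.0631, adjusted p = 0.00356, 10.1% of all genes called). In the order of the 19 group means, from 69.3 CPM for Citri high to 52.6 CPM for Aconiti high, every group overlapped the next.

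CRISPLD2 encodes a secreted cysteine-rich protein that dexamethasone induces in airway smooth muscle, and it is the member that changed most. It fell with 5 of the 6 extracts at the high dose. Vehicle libraries read 93.2, 88.7 and 84.8 CPM. Aconiti at the high dose read 35.2, 34.5 and 33.4 CPM, Yijung-tang 51.2, 53.7 and 48.6 CPM, and Citri 62.7, 63.0 and 60.9 CPM. Cimicifugae read 63.7, 66.9 and 73.2 CPM and Banhasasim-tang 80.2, 80.8 and 76.6 CPM. All 15 libraries lay below the lowest vehicle library, and the libraries of these 5 extracts did not overlap between extracts.

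Against vehicle the log2 change of CRISPLD2 was -1.37 (SE 0.0463, adjusted p = 3.85e-30) for Aconiti, which is 0.386 times the vehicle level. It was -0.80 (SE 0.0436, adjusted p = 1.03e-19) for Yijung-tang, -0.52 (SE 0.0426, adjusted p = 2.22e-13) for Citri and -0.39 (SE 0.0421, adjusted p = 3.14e-10) for Cimicifugae. For Banhasasim-tang it was -0.17 (SE 0.0413, adjusted p = 0.00296), and this call ended at -0.13 without vehicle replicate 1 (adjusted p = 0.0597). Bupleuri at the high dose read 90.9, 94.9 and 95.9 CPM, overlapping vehicle (0.08, 95% interval 0 to 0.16, adjusted p = 0.309). An antisense transcript, AC025280.2, and an intronic transcript are annotated within the gene.

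The fall of CRISPLD2 was called at the medium dose with 3 extracts. At 100 µg/mL Aconiti read 74.8, 77.1 and 76.6 CPM (-0.22, adjusted p = 4.18e-05) and Yijung-tang 76.9, 75.4 and 76.2 CPM (-0.22, adjusted p = 0.000406), all below vehicle. Citri at 100 µg/mL read 80.7, 78.7 and 77.3 CPM (-0.17, adjusted p = 0.0136), a call lost without vehicle replicate 1 (adjusted p = 0.185) or without Citri medium replicate 2 (0.0695) or 3 (0.0872). Cimicifugae (84.1 ± 2.49 CPM, SD, n = 3) and Banhasasim-tang (90.1 ± 2.67 CPM) overlapped vehicle at 100 µg/mL, with means no lower than at 20 µg/mL. At 20 µg/mL no extract was called. From low to high dose the change was -1.30 with Aconiti (adjusted p = 4.85e-29), -0.71 with Yijung-tang (adjusted p = 3.23e-18), -0.42 with Citri (adjusted p = 2.03e-10) and -0.30 with Cimicifugae (adjusted p = 3.97e-07). Banhasasim-tang gave -0.14 (adjusted p = 0.0226) and Bupleuri, in the other direction, 0.15 (adjusted p = 0.0235). Each of these last 2 calls was lost in 4 of the 6 refits that left out 1 library. For Bupleuri these were the fits without high replicate 2 or 3 or low replicate 2 or 3 (adjusted p from 0.0658 to 0.211), and for Banhasasim-tang those without high replicate 1 or 3 or low replicate 1 or 3 (0.0523 to 0.162).

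Paired extracts of a code set differed in CRISPLD2. Aconiti and Bupleuri, both of set 6, were 1.45 apart (Bupleuri higher) on the log2 scale at the high dose (SE 0.0458, adjusted p = 2.99e-31, 58.3% of all genes called), which is 2.73 times. Their changes from low to high dose also differed by 1.45 (SE 0.0623, adjusted p = 3.9e-25). Yijung-tang was lower than Banhasasim-tang at the high dose (-0.63, SE 0.0432, adjusted p = 1.53e-16), and their changes from low to high dose differed by -0.57 (adjusted p = 3.97e-10). Citri was lower than Cimicifugae at the high dose by -0.13 (adjusted p = 0.0388), but by -0.07 (adjusted p = 0.382) without the 2 libraries that lay apart.

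**Figure D3:**
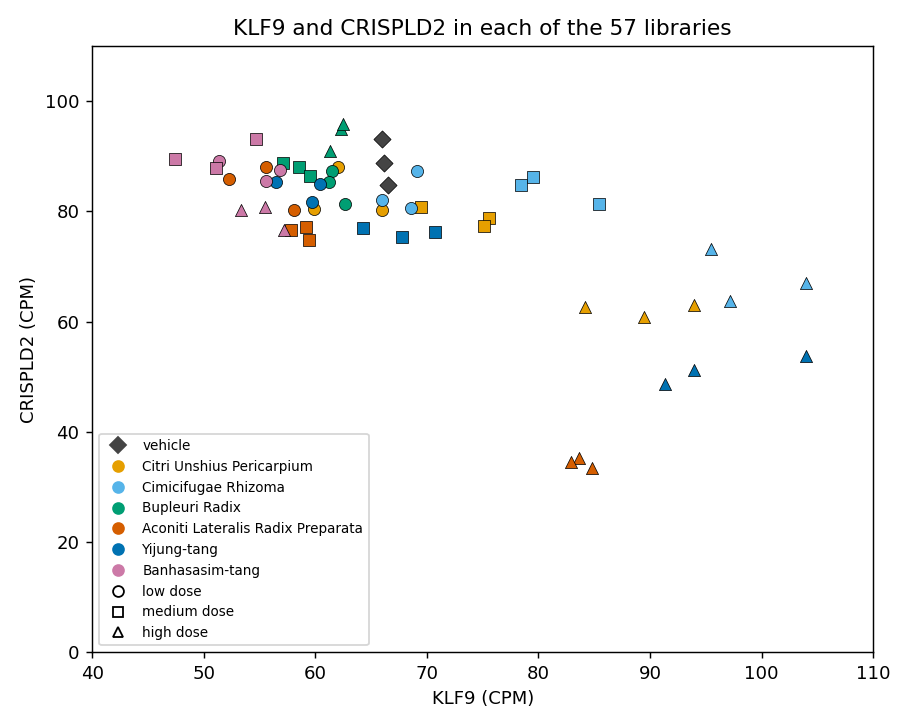
KLF9 (horizontal axis, CPM, starting at 40) against CRISPLD2 (vertical axis, CPM) in each of the 57 libraries, coloured by extract with the dose as the symbol. High-dose libraries of Citri, Cimicifugae, Aconiti and Yijung-tang lie to the lower right of the vehicle diamonds, with KLF9 at or above 82.9 CPM and CRISPLD2 at or below 73.2 CPM. High-dose Bupleuri and Banhasasim-tang lie to the left of the diamonds.

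KLF9 and CRISPLD2, both induced by the receptor in other cells, therefore went opposite ways at the high dose of 4 extracts. KLF9 rose and CRISPLD2 fell with Citri, Cimicifugae, Aconiti and Yijung-tang. Both were lower than vehicle with Banhasasim-tang, where no change of KLF9 from low to high dose was called. The sizes did not rank alike: Aconiti lowered CRISPLD2 most (-1.37) and raised KLF9 least of the 4 (0.34). SGK1 rose with Citri and Yijung-tang and fell with Aconiti, and TSC22D3 rose with Aconiti, a change that was set against Bupleuri but not tested against the extracts of other sets. No extract was called for all 5 target genes.

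Bojungikgi-tang, with 1 library per dose, gave NR3C1 at 283 CPM at the high dose, above all 57 other libraries (218 to 274 CPM), and at 259 CPM and 245 CPM at the medium and low dose. CRISPLD2 read 74.2 CPM at the high dose, below the vehicle range of 84.8 to 93.2 CPM, and 86.6 and 85.9 CPM at the lower doses, within it. KLF9 read 69.1, 62.8 and 60 CPM from high to low dose, where the vehicle range was 66.0 to 66.5 CPM. SGK1 read 58.8, 56.7 and 57.1 CPM, within the vehicle range. FKBP5 read 13.2, 13.8 and 14.0 CPM and TSC22D3 12.7, 13.6 and 14.5 CPM, inside the span of the other libraries. These libraries sit alone in set 8 and have no replicate.

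A wider list of 27 genes known to be induced by the receptor was read beside the 6, and 23 of them passed the filter. ZBTB16, FAM107A, HIF3A and LCN2 did not, with at most 10 counts in any library. At the high dose against vehicle, 12 of the 23 rose and 3 fell with Aconiti (median log2 change 0.51, beside 0.006 over all genes), 11 rose and 3 fell with Yijung-tang (median 0.32), 10 rose and 0 fell with Citri (0.18), 10 rose and 2 fell with Cimicifugae (0.18), 4 rose and 1 fell with Banhasasim-tang (0.04) and 3 rose and 4 fell with Bupleuri (0.05). For scale, 31.5% of all genes were called higher with Aconiti, 15.3% with Yijung-tang, 9.82% with Citri, 15.1% with Cimicifugae, 7.99% with Banhasasim-tang and 3.01% with Bupleuri. Called lower were 28.9%, 16.7%, 11.8%, 17.5%, 8.82% and 4.01% in the same order of extracts.

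DUSP1, a phosphatase that switches off MAP kinases, was among the wider list's clearest risers. Its vehicle libraries read 34.6, 32.6 and 31.4 CPM. Aconiti at the high dose read 119, 115 and 115 CPM (1.82, SE 0.0616, adjusted p = 4.07e-30), Yijung-tang 68.3, 65.9 and 64.3 CPM (1.01, SE 0.0631, adjusted p = 9.33e-18) and Citri 57.1, 53.0 and 53.8 CPM (0.73, SE 0.0636, adjusted p = 9.25e-13). Banhasasim-tang read 44.7, 45.4 and 46.2 CPM (0.47, adjusted p = 1.86e-07). All 12 libraries lay above vehicle. Cimicifugae (0.11, adjusted p = 0.187) and Bupleuri (0.20, adjusted p = 0.0544) were not called. PER1, a clock gene with a receptor element of its own, rose with Aconiti (0.51, adjusted p = 1.07e-10), Citri (0.33, adjusted p = 3.14e-05), Yijung-tang (0.32, adjusted p = 3.17e-05) and Cimicifugae (0.21, adjusted p = 0.00498).

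Other induced genes had their widest shifts with different extracts. IRS2, an insulin receptor substrate, read 150, 147 and 162 CPM with Aconiti at the high dose beside 20.6, 21.6 and 21.5 CPM in vehicle (2.85, SE 0.0459, adjusted p = 1.72e-43). It also rose with Bupleuri (0.29), Yijung-tang (0.28) and Cimicifugae (0.18). KLF15 with Aconiti went from 0.0599 ± 0.0651 to 1.4 ± 0.149 CPM (SD, n = 3), too low in vehicle for a firm fold. ANGPTL4, a lipase inhibitor, rose with Cimicifugae (1.12, adjusted p = 1.24e-19), Yijung-tang (0.81, adjusted p = 4.54e-14) and Bupleuri (0.54, adjusted p = 4.42e-08). PDK4, which shuts down pyruvate dehydrogenase, rose by 1.28 with Yijung-tang, 1.20 with Cimicifugae, 1.09 with Citri and 0.61 with Aconiti (adjusted p = 0.0227), from 1.52 ± 0.525 CPM (SD, n = 3) in vehicle. CEBPD, a transcription factor gene, rose with Cimicifugae (0.83). With Bupleuri TIPARP rose (0.34) and MT1X fell (-0.44). DDIT4, an inhibitor of mTORC1, rose with 5 of the 6 extracts, most with Aconiti, from 82.2 ± 2.75 to 246 ± 12.5 CPM (1.58, adjusted p = 5.66e-24), and was not called with Bupleuri (-0.06, adjusted p = 0.746). NFKBIA, the NF-kB inhibitor, rose with Banhasasim-tang from 41.1 ± 0.194 to 89.2 ± 2.93 CPM (1.12, adjusted p = 2.09e-22) and with Aconiti by 0.34 (adjusted p = 7.83e-07). MT2A, a metallothionein with close paralogs among which reads can be split, rose by 0.75 with Banhasasim-tang (adjusted p = 2.07e-14) and 0.73 with Aconiti (adjusted p = 1.65e-15), and fell with Yijung-tang (-0.26, adjusted p = 0.00056).

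Genes that the receptor is known to hold back, mostly cytokines, chemokines and proteases, were higher rather than lower in most calls. Of 16 listed, 15 passed the filter (NOS2, at 0 to 2 counts, did not). With Banhasasim-tang 14 of 15 rose and 0 fell (median 1.82), and with Aconiti 12 rose and 2 fell (median 1.70). Yijung-tang raised 9 and lowered 1, Cimicifugae raised 6 and lowered 3, Citri raised 4 and lowered 1, and Bupleuri raised 3 and lowered 3. Of all genes, 7.99% were called higher and 8.82% lower with Banhasasim-tang, 31.5% and 28.9% with Aconiti, 15.3% and 16.7% with Yijung-tang, 15.1% and 17.5% with Cimicifugae, 9.82% and 11.8% with Citri and 3.01% and 4.01% with Bupleuri. CXCL8, the neutrophil chemokine, read 4.48, 5.13 and 5.26 CPM in vehicle, 109, 114 and 100 CPM with Aconiti (4.44, SE 0.0867, adjusted p = 5.56e-40) and 105, 103 and 109 CPM with Banhasasim-tang (4.41, SE 0.0861, adjusted p = 8.96e-39). CXCL8 also rose with Yijung-tang (1.34, adjusted p = 1.01e-13) and Bupleuri (0.93, adjusted p = 5.67e-08). IL1B rose with all 6 extracts, from 0.63 on the log2 scale with Citri (adjusted p = 0.000318) to 1.82 with Banhasasim-tang (adjusted p = 1.75e-17). IL6 rose with Citri (0.68) and Cimicifugae (0.80), and IL11 rose with Citri (0.59) and fell with Aconiti (-0.94, adjusted p = 8.2e-13). The naming rule limits which extracts are given for a gene, so a listed gene may have changed with others too. From vehicle means of 0.11 to 0.311 CPM, CXCL2 reached 11.9 ± 0.914 CPM (SD, n = 3) and CSF2 3.43 ± 0.72 CPM with Aconiti, and CXCL1 3.75 ± 0.185 CPM and CSF3 4.27 ± 0.523 CPM with Banhasasim-tang. CXCL2 also rose with Yijung-tang, to 1.21 ± 0.133 CPM. CXCL1 and CXCL2 are close paralogs between which reads can be split. MMP3, a matrix protease, fell with Bupleuri (-0.44, adjusted p = 0.000849), Cimicifugae (-0.43, adjusted p = 0.000197) and Yijung-tang (-0.27, adjusted p = 0.0168) and rose with Aconiti (0.27, adjusted p = 0.00674). So with Aconiti TSC22D3 was higher together with 12 of the 15 listed genes, while IL11 was lower. With Banhasasim-tang 14 of the 15 were higher while KLF9 and SGK1 were lower.

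**Figure D4:**
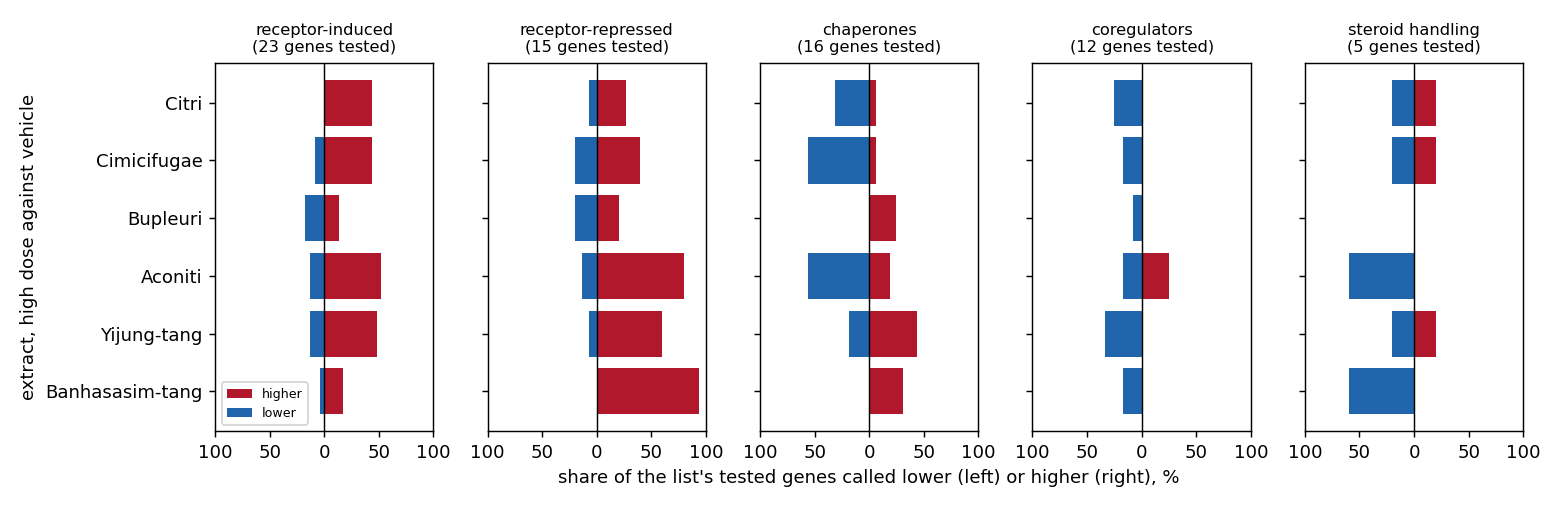
Share of each pathway list's tested genes called higher (red, to the right) or lower (blue, to the left) at the high dose against vehicle, in percent, for the 6 extracts. In the receptor-repressed panel 14 of 15 genes are higher with Banhasasim-tang and 12 of 15 with Aconiti, and in the chaperone panel 9 of 16 are lower with Aconiti and with Cimicifugae.

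Of 16 listed chaperone and cochaperone genes, 12 were called with Aconiti (9 fell and 3 rose), where 60.4% of all genes were called. Cimicifugae and Yijung-tang had 10 called each (32.5% and 32% of all genes). With Aconiti at the high dose HSPA8, the constitutive HSP70 protein, read 509, 495 and 522 CPM beside 1200, 1170 and 1160 CPM in vehicle (-1.21, SE 0.0389, adjusted p = 5.59e-31). Also with Aconiti, HSPA1A, which has a near-identical neighbour so that its reads can be split, gave -1.28 (adjusted p = 3.65e-26). DNAJA1 with Aconiti gave -1.06 (adjusted p = 2.49e-24). With Cimicifugae 9 fell and 1 rose: HSP90AB1, the constitutive HSP90, went from 1560 ± 21.4 to 1320 ± 20 CPM (-0.24, adjusted p = 9.8e-12). Yijung-tang raised 7 and lowered 3, among them HSPA1A (0.36, adjusted p = 6.79e-08), Banhasasim-tang raised 5 and lowered 0, Bupleuri raised 4 and lowered 0, and Citri raised 1 and lowered 5, beside 16.8%, 7.02% and 21.6% of all genes called. The cochaperone genes BAG1 (-0.39), DNAJB1 (-0.23) and CDC37 (-0.17) fell with Citri, and BAG1 (-0.38) fell and AHSA1 (0.30) rose with Yijung-tang. DNAJB1 (-0.20) and DNAJA1 (-0.33) fell with Cimicifugae.

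Of 12 coregulators, the proteins that the DNA-bound receptor recruits, Aconiti raised 3 and lowered 2, where 60.4% of all genes were called. Citri lowered 3 (21.6%), Yijung-tang 4 (32%), Cimicifugae 2 (32.5%), Banhasasim-tang 2 (16.8%) and Bupleuri 1 (7.02%), and these 5 raised 0. With Aconiti the coactivator NCOA3 rose from 61.3 ± 2.05 to 104 ± 3.59 CPM (0.76, adjusted p = 7.21e-21), and NRIP1, a corepressor, fell from 84.8 ± 2.04 to 56.5 ± 1.62 CPM (-0.59, adjusted p = 1.32e-18). NRIP1 also fell with Citri (-0.22, adjusted p = 1.15e-05), Yijung-tang (-0.22, adjusted p = 9.48e-06), Cimicifugae (-0.18, adjusted p = 0.000174) and Bupleuri (-0.13, adjusted p = 0.0209). The corepressor gene NCOR1 rose with Aconiti (0.34). CREBBP, a histone acetyltransferase gene, fell with Citri (-0.21). Of 8 genes for steroid handling and related receptors, 5 were tested. H6PD, which supplies the cofactor of HSD11B1, rose with Yijung-tang (0.21, adjusted p = 2.6e-05), Citri (0.13, adjusted p = 0.0119) and Cimicifugae (0.10, adjusted p = 0.0395). ABCB1, whose transporter exports glucocorticoids, fell by 0.31 with both Citri and Aconiti, and SRD5A1, a steroid 5-alpha reductase gene, fell by 0.31 with Aconiti.

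The genes whose group means followed each member most closely were read from Pearson correlations over the 19 group means, among 1492 genes that varied and were well expressed. The points share libraries, sets and the vehicle group, so r is a description. CRISPLD2 was followed by CPA4 (r = 0.982), NREP (0.962), EPHA4 (0.961), MECOM (0.96) and DUBR (0.958), and without the Aconiti high-dose group these were 0.886 to 0.951. KLF9 was followed by AKR1C1 (0.921) and its close paralog AKR1C2 (0.881), between which reads can be split, then IMPA2 (0.849), KCNAB2 (0.846) and CELSR3 (0.832). TSC22D3 was followed by PPP1R3C (0.918), MALAT1 (0.861) and DDIT4 (0.858), which were 0.876, 0.782 and 0.767 without the Aconiti high-dose group. SGK1 was followed by SLC7A8 (0.807) and TSPAN9 (0.804), and NR3C1 by CA9 (0.84) and IL11 (0.824). For FKBP5 the highest was 0.463 (FAM241A), and its group means had an SD of only 0.055 on the log2 scale. That SD was also small for NR3C1 (0.067), SGK1 (0.106) and TSC22D3 (0.129), below the 0.2 asked of the genes compared with them.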

How the data were processed

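RNA from 60 libraries was sequenced with a directional kit, per the labels' protocols. The submitters' processing notes name RSEM 1.3.3, the aligner STAR 2.7.3a, the trimmer Trim Galore 0.6.5 and the read check FastQC 0.11.9, with build hg38/GRCh38. No source used here gives the annotation release or the strand setting of the counting. The authors deposited expected counts per gene (9.216% of values not whole), which were rounded here. In 57 libraries of 19 groups, genes were filtered with filterByExpr (17190 kept), scaled by TMM and fitted together with edgeR 4.0.16 in R 4.3.3 by the quasi-likelihood test, with Benjamini-Hochberg adjustment over all genes. A gene was called at an adjusted p under 0.05. CPM use the TMM-scaled totals of the genes kept. The unscaled totals over all genes of the count table were 18.9 M to 36.4 M counts. The procedure was tested on simulated data.

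The 6 genes and all lists were chosen with earlier results of these data known. Besides the 6, DUSP1, PER1, NR3C2 and HSD11B1 are named, and from each pathway list, for each extract, up to 3 genes with the largest log2 change called with the same sign at the high dose against vehicle and against the low dose, with at least 1 CPM in the higher group. For genes most like a member, the 5 highest r were kept among genes with a mean of at least 5 CPM and an SD of at least 0.2. Alternatives were RLE factors, DESeq2 1.42.0, no filter, a fit of the 2 groups alone, replicate blocks and leaving out each library. Leaving out the 2 libraries that lay apart was added after seeing the data. Bojungikgi-tang, with 1 library per dose, entered no fit. Some genes that the naming rule picks are not reported here.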

Additional observations from a re-analysis of the deposited data

Results flagged for a closer look

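The change from low to high dose differed between extracts of the same code set in 9 cases, each by edgeR's test of the difference itself. All 6 genes were tested in each pair of extracts. Of all genes, 11.1% were called for Citri against Cimicifugae, 44% for Bupleuri against Aconiti and 10.1% for Yijung-tang against Banhasasim-tang. Between Citri and Cimicifugae it differed for NR3C1 by 0.27 on the log2 scale (adjusted p = 2.91e-05) and for TSC22D3 by 0.33 (adjusted p = 0.0344). Without the 2 libraries that lay apart these were 0.21 (adjusted p = 0.00247) and 0.15 (adjusted p = 0.557). The TSC22D3 difference also ended when any 1 of Citri high replicates 1 and 3, Citri low replicate 3, Cimicifugae high replicate 3 and Cimicifugae low replicates 1 and 3 was left out (adjusted p from 0.0545 to 0.208).

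Between Bupleuri and Aconiti, Bupleuri minus Aconiti, the change from low to high dose differed for CRISPLD2 by 1.45 (adjusted p = 3.9e-25), SGK1 by 0.31 (adjusted p = 8.69e-05), KLF9 by -0.59 (adjusted p = 9.47e-10) and TSC22D3 by -0.46 (adjusted p = 0.000293). Between Yijung-tang and Banhasasim-tang it differed for KLF9 by 0.70 (adjusted p = 1.03e-10), CRISPLD2 by -0.57 (adjusted p = 3.97e-10) and SGK1 by 0.26 (adjusted p = 0.00356).

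NR3C1 in the single Bojungikgi-tang library at the high dose, at 283 CPM, lay above all 57 libraries of the comparisons, which ran from 218 to 274 CPM.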

How the results depend on the processing

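KLF9 and FKBP5 kept their side of the threshold in all alternatives run at the high dose against vehicle and against the low dose, and no result changed sign where a call was involved. The number of the 6 genes called from low to high dose changed as follows. Fitting the 2 groups alone gave 3 for Citri (5 in the fit of all groups) and 2 for Cimicifugae (4). With no filter on low counts it was 2 for Cimicifugae and 0 for Banhasasim-tang (1). DESeq2 gave 2 for Banhasasim-tang. Citri lost its TSC22D3 call both with no filter (adjusted p = 0.089) and with DESeq2 (adjusted p = 0.0749). Leaving out the 2 libraries that lay apart gave 2 for Bupleuri (1), 2 for Banhasasim-tang, 4 for Citri and 3 for Cimicifugae. Same-numbered libraries deviated together with correlations of -0.124 to 0.189, and in no comparison were all 3 above 0.1. For Bupleuri from low to high dose they were 0.049, 0.068 and 0.152, beside a mean of -0.045 between other numbers. For Citri at the high dose against vehicle they were -0.012, -0.11 and -0.124, beside 0.041. The main fit used no replicate block, and whether same-numbered libraries were prepared together was not tested. With the replicate block, and with the replicate block within code sets, Bupleuri had 2 genes called in place of 1. With the replicate block over all groups, NR3C1 with Cimicifugae at the high dose against vehicle was also called (adjusted p = 0.0416).

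Leaving out each library in turn gave, at the high dose against vehicle, 3 to 4 genes for Citri, 2 to 3 for Cimicifugae, 0 to 1 for Bupleuri, 5 in every fit for Aconiti, 3 in every fit for Yijung-tang and 1 to 3 for Banhasasim-tang. From low to high dose the ranges were 4 to 5, 2 to 4, 0 to 2, 5, 3 to 4 and 0 to 1. Counts over all genes moved by over 1.5 times for Citri from low to high dose without its low replicate 3 (2007 in place of 3135), for Bupleuri against vehicle without vehicle replicate 1 (782 in place of 1206), and for Bupleuri from low to high dose (as few as 496 in place of 752, without its high replicate 1; 501 without high replicate 2 or low replicate 3). Fitting the 2 groups alone gave 1063 for Citri from low to high dose, 1567 in place of 4317 for Cimicifugae from low to high dose and 2866 in place of 5592 for Cimicifugae against vehicle. The cause was not tested. FKBP5, at 12.9 CPM in vehicle, had 95% intervals from -0.27 to 0.23 over its comparisons with vehicle.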
